A study of Mus musculus with 9 samples.

Results

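The 9 genes described here encode laminin chains (Lama3, Lama5 and Lamb3) and integrin subunits (Itga2, Itga3, Itga5, Itga6, Itgb1 and Itgb4), out of 41457 genes in the table. They were chosen by symbol, as genes of the laminin called laminin-332 and of the integrins of epithelial cells, by someone who had seen results of these data. RNA was measured in PancOVA cells, a tumour cell line of the mouse pancreas, sorted after 48 h in a matrigel droplet with mouse pancreatic stellate cells, which are fibroblasts of the pancreas. In all 3 groups the stellate cells (mPSC45 cells carrying CD90.1) had first been held quiescent in matrigel for 48 h. In the iCAF group they were then primed for 48 h with conditioned medium of Tc17 cells, T cells of a kind that makes interleukin-17, and in the myCAF group for 48 h with rhTGF-β1 at 2 ng/ml. In the qPSC group, the background control of the study, they stayed quiescent. Each group had 3 libraries. The labels do not tell whether these came from separate cultures, so p-values cover only the variation among 3 libraries a group, and that may be technical. The sort took cells positive for a proliferation dye given to the tumour cells beforehand.

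Laminins are secreted trimers of 1 α, 1 β and 1 γ chain and form the sheet of a basement membrane on which epithelial cells rest. Laminin-332 holds the chains made from Lama3 and Lamb3 and anchors epithelia through hemidesmosomes, whereas the product of Lama5 enters laminins with chains from Lamb1 or Lamb2 and Lamc1. Integrins are receptors of 1 α and 1 β subunit that bind such matrix outside the cell and the cytoskeleton inside it. The product of Itgb1 pairs with many α subunits, while that of Itgb4 pairs only with the product of Itga6. The matrigel of these cultures is itself an extract of basement membrane rich in laminin protein, which RNA sequencing does not see.

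Integrins of the β1 class and a laminin with Lama5 led these cells, and transcripts of Lama3 and Lamb3, chains of laminin-332, were near absent. Values are TPM, transcripts per 1000000 transcripts, a level that is corrected for gene length and can be compared between genes. Averaged over the 9 libraries, the order of the levels was Itgb1 at 558 TPM, Itga3 at 292.3, Lama5 at 97.2, Itgb4 at 58.5, Itga5 at 57.6, Itga6 at 6.12, Lama3 at 0.353, Itga2 at 0.0571 and Lamb3 at 0.012 TPM. Itgb4 and Itga5 could not be ranked, since their ranges over libraries were 34.8 to 66.7 and 35.7 to 68.3 TPM. The ranges of Lama5 and Itgb4 overlapped too, as did those of Itga2 and Lamb3. Within every library, though, Lama5 lay above Itgb4, and Itga2 lay above Lamb3, the latter pair on few reads. Across libraries 6 of the 9 genes passed the filter of at least 1 TPM in at least 3 libraries and were tested, and Lama3, Lamb3 and Itga2 did not pass.

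1 library stood apart before any comparison. In iCAF replicate 3 the median log2(TPM + 1) of the 11704 tested genes was 3.96, against 4.35 to 4.47 in the other 8 libraries, and ribosomal protein genes took 20.7% of TPM, against 13.9% to 14.8%. Its difference from the other iCAF libraries moved with the length of a gene's exons, at a median of 0.01 log2 units in the 2913 shortest tested genes and -0.65 in the 2912 longest. The tested laminin and integrin genes, with exon lengths of 4081 to 11388 bases, differed in it by -0.54 (Itga5) to -1.06 (Lama5) log2 units. Changes of the 9 genes are therefore given with and without that library. The steps between low TPM values implied 38870599 to 45317198 reads per library.

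The sorted cells expressed Krt8 and Krt18, keratins of simple epithelia, at 743.9 to 829.9 and 805.5 to 955.8 TPM, and little of the adhesion genes Epcam and Cdh1, each at no more than 0.0275 TPM. Of 12 epithelial and tumour cell markers 5 passed the filter and limma called 0, or 1 in myCAF against qPSC without iCAF replicate 3 (Krt19, higher; adjusted p = 0.0303). Cldn4 was at 0 in every library. Of 18 fibroblast markers, 13 passed the filter and 5 lay under 1 TPM everywhere. These 5 were Col1a2, Lum, Fap and Tagln, at no more than 0.279, 0.189, 0.05035 and 0.745 TPM, and Cthrc1, at 0 in every library. The summed fibroblast markers lay at 186 to 383 TPM in iCAF, 391 to 796 TPM in myCAF and 394 to 496 TPM in qPSC libraries. Of 16 leukocyte markers 1 passed (Cd68), with sums of 5.71 to 7.7 TPM in iCAF, 6.35 to 7.05 TPM in myCAF and 6.68 to 7.64 TPM in qPSC libraries, and Cd8a, Ncr1 and Tyrobp were at 0. Of 8 endothelial markers 1 passed (Eng), with sums of 1.89 to 2.89, 1.97 to 2.88 and 2.11 to 2.96 TPM in iCAF, myCAF and qPSC libraries, and Emcn was at 0. In such bulk samples fewer cells of a type and less RNA per cell cannot be told apart. Which cells the fibroblast, leukocyte and endothelial marker transcripts came from was not tested.

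**Figure D1:**
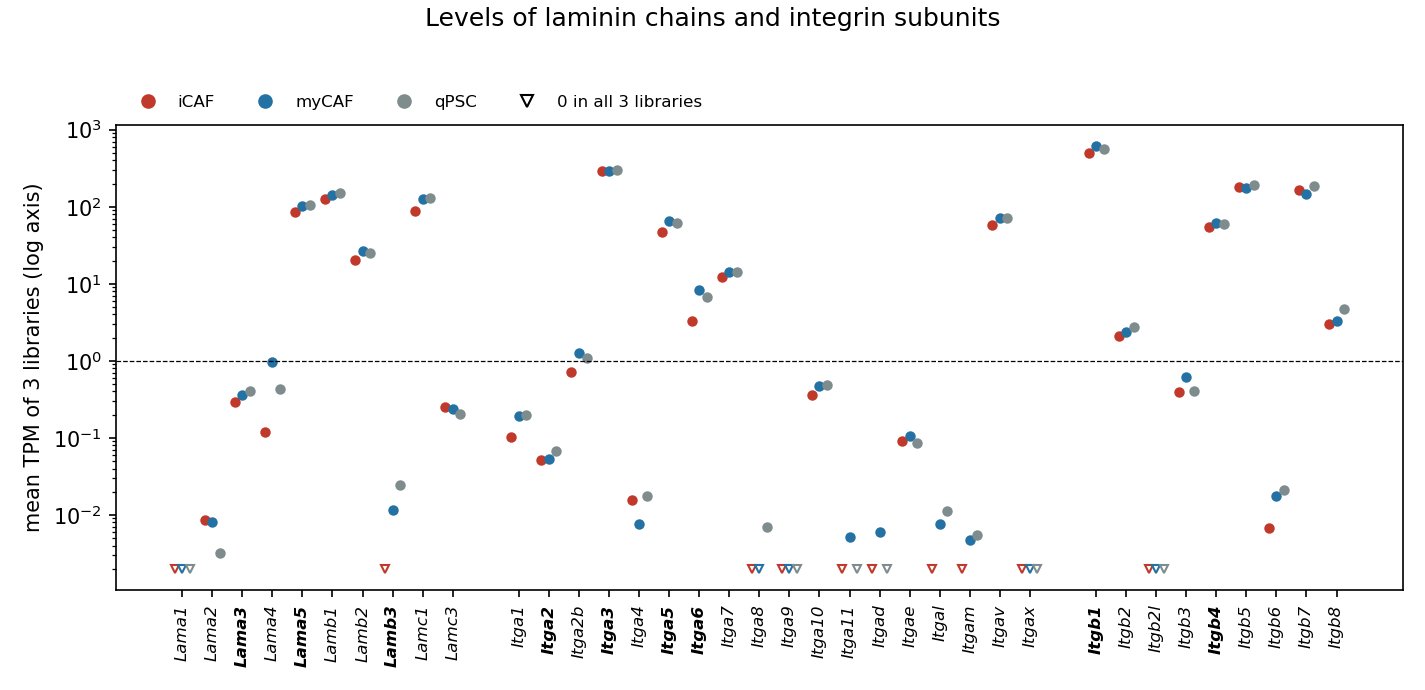
Mean level of laminin chains and integrin subunits in TPM (log axis) over the 3 libraries of each group, with open triangles for genes at 0 in all 3 and a dashed line at 1 TPM. Names in bold are the 9 genes described, of which Itgb1, Itga3, Lama5, Itgb4, Itga5 and Itga6 lie above the line in every group and Lama3, Itga2 and Lamb3 below it.

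Among the laminin chains, the label laminin-332 did not describe what these cells transcribed. Lamb3, which encodes its β chain, was listed at 0 in all 3 iCAF libraries, at 0.0108, 0.0122 and 0.0121 TPM in myCAF libraries, and at 0.0233, 0.0495 and 0 TPM in qPSC libraries. These values stand for 0, 0 and 0 implied reads in iCAF, 1, 1 and 1 in myCAF, and 2, 4 and 0 in qPSC libraries, 9 reads in all. A count of 3 reads would have been at most 0.0372 TPM, so nothing can be read from the order of the groups. The gene spans positions 193207699 to 193343878 of chromosome 1 in GENCODE M21 (GRCm38).

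Lama3, which encodes the α chain of laminin-332, was measurable at a low level. It lay at 0.377, 0.344 and 0.163 TPM in iCAF libraries, 0.325, 0.323 and 0.418 TPM in myCAF libraries, and 0.496, 0.426 and 0.307 TPM in qPSC libraries. The 3 groups overlapped, and the values rested on 29 to 69 implied reads per library. Lama3 gave 0.288% to 0.459% of the TPM of all laminin α chains.

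Lama5 made up nearly all of the laminin α chain transcripts, from 98% to 99.6% in each library. It lay at 90.9, 114.4 and 48.4 TPM in iCAF libraries, 97.1, 101.9 and 107.2 TPM in myCAF libraries, and 107.1, 102 and 105.8 TPM in qPSC libraries. The low value was that of iCAF replicate 3, and the other iCAF libraries lay on either side of the qPSC range. The log2 fold change was -0.40 ± 0.25 (SE) for iCAF against qPSC with all libraries and -0.04 ± 0.09 without iCAF replicate 3. For myCAF against qPSC it was -0.04 ± 0.25 with all libraries, whose shared spread takes in iCAF replicate 3, and -0.04 ± 0.08 without that library. Lama5 lies on chromosome 2 from 180176373 to 180225859.

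The chains of Lamb1 and Lamc1, which go with that of Lama5, were present at comparable levels. Lamb1 gave 81.8% to 86.2% of the TPM of laminin β chains. Lamb1 averaged 124.2 ± 35 TPM in iCAF, 141.8 ± 5.36 TPM in myCAF libraries and 149.4 ± 2.96 TPM in qPSC libraries (SD, n = 3). Lamc1 averaged 88 ± 32.6 TPM in iCAF, 126.7 ± 7.85 TPM in myCAF libraries and 128.6 ± 3.59 TPM in qPSC libraries. For Lamc1 all iCAF libraries lay below all qPSC libraries, with a log2 fold change of -0.62 ± 0.24 that did not pass the test (limma, adjusted p = 0.3, and 0.0709 without iCAF replicate 3, where the change was -0.27). Lamb2, the other β chain of such laminins, averaged 20.4 TPM in iCAF, 26.6 TPM in myCAF libraries and 24.9 TPM in qPSC libraries.

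Several other laminin chains were scarce. Lama1 was listed at 0 in every library. Lama4, a chain of mesenchymal and vascular laminins, lay at 0.066, 0.264 and 0.03 TPM in iCAF libraries, 1.66, 0.374 and 0.871 TPM in myCAF libraries, and 0.313, 0.468 and 0.519 TPM in qPSC libraries. It failed the filter and was not tested. Lama2 and Lamc3 did not exceed 0.0147 and 0.304 TPM in any library.

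Among the integrins that bind laminin, Itga3 was the leading α subunit. Its product pairs with that of Itgb1 into a receptor for laminins that hold the Lama5 or Lama3 chain. Itga3 lay at 329.5, 326.8 and 206.9 TPM in iCAF libraries, 271.8, 315.2 and 291.3 TPM in myCAF libraries, and 303.7, 289 and 296.8 TPM in qPSC libraries. Apart from iCAF replicate 3, the iCAF libraries were the highest of the 9. The log2 fold change for iCAF against qPSC was -0.08 ± 0.16 with all libraries and 0.15 ± 0.06 without iCAF replicate 3. The sign of this change thus depended on that library, and it did so for iCAF against myCAF as well, at -0.05 with it and 0.17 without it. Itga3 lies on chromosome 11 from 95044474 to 95076801.

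Itga6 had the largest difference between groups of the 9 genes. Its product joins that of Itgb1 in a laminin receptor or that of Itgb4 in the hemidesmosome. Itga6 lay at 3.31, 4.4 and 2.02 TPM in iCAF libraries, 8.88, 6.48 and 9.47 TPM in myCAF libraries, and 6.83, 7.1 and 6.56 TPM in qPSC libraries. Every iCAF library lay below every library of the other groups, while the myCAF and qPSC ranges overlapped. The fold change on the log2(TPM + 1) scale, which understates changes of low genes, was -0.92 ± 0.21 (1.9-fold lower) for iCAF against qPSC. In iCAF against myCAF it was -1.15 ± 0.21 (2.23-fold lower), and in myCAF against qPSC 0.23 ± 0.21. Without iCAF replicate 3 the values were -0.70 ± 0.15, -0.93 ± 0.15 and 0.23 ± 0.14 in the same order. The values rested on 302 to 1124 implied reads per library. Itga6 lies on chromosome 2 from 71745616 to 71858416.

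Itgb4, whose long intracellular part binds plectin in the hemidesmosome, did not follow Itga6. It lay at 62.6, 66.7 and 34.8 TPM in iCAF libraries, 57.8, 65.1 and 59.8 TPM in myCAF libraries, and 60.9, 59.3 and 59.8 TPM in qPSC libraries. All groups overlapped, and only iCAF replicate 3 was low. The log2 fold change for iCAF against qPSC was -0.19 ± 0.20 with that library and 0.11 ± 0.06 without it, so that its sign rested on 1 library. Itgb4 lies on chromosome 11 from 115974709 to 116008412.

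The ratio of Itgb4 to Itga6 TPM compares the members of this pair within each library. It was 18.9, 15.1 and 17.3 in iCAF libraries, 6.51, 10 and 6.31 in myCAF libraries, and 8.92, 8.36 and 9.12 in qPSC libraries. iCAF replicate 3 lay between the other iCAF libraries in this ratio, and all 3 lay above the 6 other libraries. As Itga6 was picked out here from values already seen, this ratio is a description and was not tested. Itga6 gave 0.683% to 0.93% of the TPM of α subunits in iCAF libraries, 1.39% to 2.07% in myCAF libraries and 1.45% to 1.62% in qPSC libraries.

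**Figure D2:**
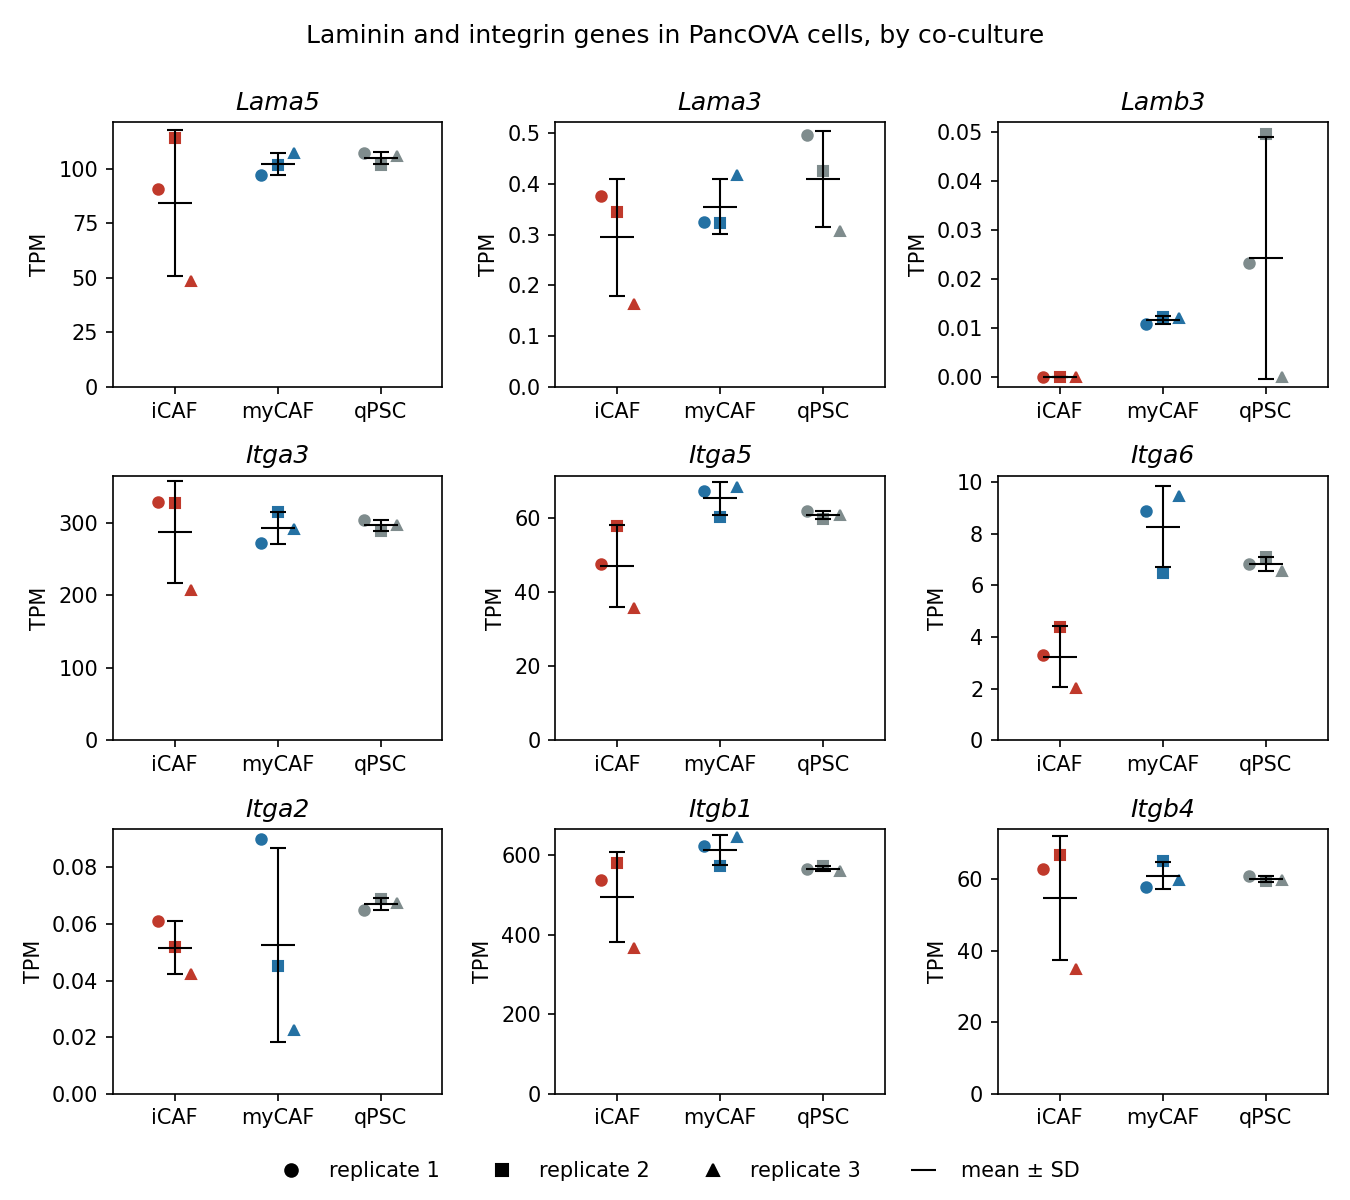
TPM of each of the 9 genes in every library (linear axes from 0, or from just below it for Lamb3), by group, with a symbol for each replicate number and bars for the mean ± SD of 3 libraries. Itga6 is lower in all 3 iCAF libraries than in any other, and for Lama5, Itga3, Itgb1 and Itgb4 iCAF replicate 3 (triangle) is the lowest of the 9.

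Itgb1, the common β1 subunit, was the most abundant of the 9 genes in every library. It lay at 536.9, 580.9 and 366.5 TPM in iCAF libraries, 622.5, 572.1 and 645.6 TPM in myCAF libraries, and 564.9, 573.2 and 559.1 TPM in qPSC libraries. All groups overlapped. The log2 fold change for iCAF against qPSC was -0.22 ± 0.15 with all libraries and -0.02 ± 0.06 without iCAF replicate 3. For iCAF against myCAF it was -0.34 ± 0.15 and -0.13 ± 0.06. Itgb1 gave 53.1% to 57.2% of β subunit TPM in iCAF, 58.4% to 62.5% in myCAF and 55.7% to 56.6% in qPSC libraries, ranges that left myCAF above the other groups. Itgb1 lies on chromosome 8 from 128685654 to 128733200.

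Itga5, whose product joins that of Itgb1 in the main fibronectin receptor, had its lowest values in iCAF libraries. It lay at 47.6, 57.6 and 35.7 TPM in iCAF libraries, 67.2, 60 and 68.3 TPM in myCAF libraries, and 61.8, 59.7 and 60.8 TPM in qPSC libraries. No iCAF library reached the lowest value of another group, though iCAF replicate 2 came within the distance that separates qPSC libraries from each other. In iCAF against qPSC the log2 fold change was -0.39 ± 0.15, in iCAF against myCAF it was -0.49 ± 0.15, and in myCAF against qPSC it was 0.10 ± 0.15. With iCAF replicate 3 left out, these were -0.21 ± 0.08, -0.31 ± 0.08 and 0.10 ± 0.08. The ratio of Itga3 to Itga5 TPM was 6.93, 5.67 and 5.8 in iCAF, 4.05, 5.25 and 4.27 in myCAF and 4.91, 4.84 and 4.89 in qPSC libraries, with the iCAF values above all others. Itga5 lies on chromosome 15 from 103344286 to 103366763.

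Itga2, whose product joins that of Itgb1 in a collagen receptor, was close to absent. It lay at 0.0609, 0.0519 and 0.0422 TPM in iCAF libraries, 0.0899, 0.0452 and 0.0225 TPM in myCAF libraries, and 0.0649, 0.0688 and 0.0675 TPM in qPSC libraries. These values stand for 2 to 9 implied reads per library, 50 in all, and a count of 3 reads would be at most 0.0345 TPM. A difference between groups was not detectable at this depth. Itga2 lies on chromosome 13 from 114833081 to 114932100.

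The stretches of DNA around the start sites of these genes are a sequence feature that played no part in their choice. RefSeq windows of 300 bases around a start (GRCm38.p6), most of them before it, were read for 6 of the 9 genes, and in each the pair C then G was counted, which reads alike on both strands. Itga6 and Itgb4 had no window in the source used. Lama3, which is also below the filter, was left out and its count is not reported here. Genes that passed the filter had a median of 22 CG pairs in this window (9007 genes), and genes below it a median of 4 (11012 genes). Lamb3, near absent here, had 2 pairs, and 20% of the 20019 windows had no more. Its window lies at a RefSeq start inside the GENCODE M21 span given above, which begins at 193207699, and not at the start of that span. Itga2, also near absent, and Itga5, at 57.6 TPM on average, each had 13 pairs, while Itgb1 had 27 and Itga3 and Lama5 had 24 each. The windows of 4 genes are shown to set these counts side by side, 5′ to 3′ on the gene's strand with CG pairs in capitals. They are chr1:193301744-193302043 on the plus strand (Lamb3), chr13:114932051-114932350 on the minus strand (Itga2), chr15:103366742-103367041 on the minus strand (Itga5) and chr8:128685404-128685703 on the plus strand (Itgb1).
Lamb3: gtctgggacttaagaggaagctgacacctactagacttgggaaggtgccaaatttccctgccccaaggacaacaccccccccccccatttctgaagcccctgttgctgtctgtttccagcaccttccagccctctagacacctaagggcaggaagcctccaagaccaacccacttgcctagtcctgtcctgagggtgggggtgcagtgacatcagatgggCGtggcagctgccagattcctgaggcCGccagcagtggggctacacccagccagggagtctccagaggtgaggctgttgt
Itga2: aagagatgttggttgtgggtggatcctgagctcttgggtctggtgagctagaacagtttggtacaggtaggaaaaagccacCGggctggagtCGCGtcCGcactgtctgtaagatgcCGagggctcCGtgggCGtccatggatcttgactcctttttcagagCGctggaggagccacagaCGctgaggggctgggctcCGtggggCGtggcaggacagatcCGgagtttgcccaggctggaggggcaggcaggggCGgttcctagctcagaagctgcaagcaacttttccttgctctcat
Itga5: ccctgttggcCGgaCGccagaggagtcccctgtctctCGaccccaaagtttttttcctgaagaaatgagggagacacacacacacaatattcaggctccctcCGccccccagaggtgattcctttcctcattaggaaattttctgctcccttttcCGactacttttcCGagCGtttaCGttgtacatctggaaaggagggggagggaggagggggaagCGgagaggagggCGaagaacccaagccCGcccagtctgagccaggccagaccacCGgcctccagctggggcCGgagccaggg
Itgb1: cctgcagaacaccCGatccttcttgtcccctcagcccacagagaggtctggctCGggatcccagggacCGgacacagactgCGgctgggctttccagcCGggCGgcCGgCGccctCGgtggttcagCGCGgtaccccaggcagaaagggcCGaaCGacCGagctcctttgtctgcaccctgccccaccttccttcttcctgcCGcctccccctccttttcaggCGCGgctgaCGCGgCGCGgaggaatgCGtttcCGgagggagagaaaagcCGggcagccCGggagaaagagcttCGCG

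Itga2 and Itga5 had equal counts in these windows and mean levels of 0.0571 and 57.6 TPM. The part of CG pairs in the levels was not tested. Each window lies at the most upstream RefSeq start of its gene, and whether these cells use that start was not measured. Methylation and binding at these sites were not measured in this study.

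The first comparison set iCAF against qPSC co-cultures, asking how tumour cells next to inflammatory fibroblasts differed from those next to quiescent ones. All 6 tested genes had negative log2 fold changes, from -0.92 (Itga6) to -0.08 (Itga3), with a median of -0.31, where all tested genes had a median of -0.15. Without iCAF replicate 3 both medians were -0.03. By limma with Benjamini-Hochberg adjustment over all genes, 0 of the 6 passed the threshold of 0.05, while 0.598% of all 11704 tested genes did. The lowest adjusted p was 0.116 (Itga6; 0.0649 without iCAF replicate 3), and 2 of the 6 (Itga6 and Itga5) had an unadjusted p under 0.05. Since the genes were chosen with these values known, the p-values describe them and support nothing. The same 2 genes had iCAF libraries that did not overlap with and lay below the qPSC libraries, which held for 23.2% of all genes tested.

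The second comparison, myCAF against qPSC, asked the same of myofibroblast-like cells. The log2 fold changes of the 6 genes ran from -0.04 (Lama5) to 0.23 (Itga6), with 4 positive, 2 negative and a median of 0.06, where the median of all genes was 0.01. By limma 0 of the 6 passed, each with an adjusted p of 1, 0 had an unadjusted p under 0.05, and the share of all genes called was 0%. Of all tested genes, 312 with higher and 441 with lower values in myCAF had an unadjusted limma p under 0.05. The spread in this fit takes in iCAF replicate 3, which is in neither group. With only the 6 libraries compared, limma called 3.29% of all genes, and it called 2.83% without iCAF replicate 3. It called 0 of the 6 genes in both of these fits. None of the 6 had groups that did not overlap, where 23.9% of all genes did in one direction or the other.

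The third comparison set iCAF against myCAF co-cultures, and shares its libraries with the first and second. All 6 log2 fold changes were negative, from -1.15 (Itga6) to -0.05 (Itga3), with a median of -0.35, where all genes had a median of -0.15. Without iCAF replicate 3 the medians were -0.07 and -0.03. By limma 0 of the 6 passed, against 0.0598% of all genes, and the lowest adjusted p was 0.0887 (Itga6). Itga6, Itga5 and Itgb1 had an unadjusted p under 0.05, as did 284 genes with higher and 1814 with lower values in iCAF among all tested. In Itga6 and Itga5 the groups did not overlap, with iCAF lower, as in 18.3% of all genes.

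**Figure D3:**
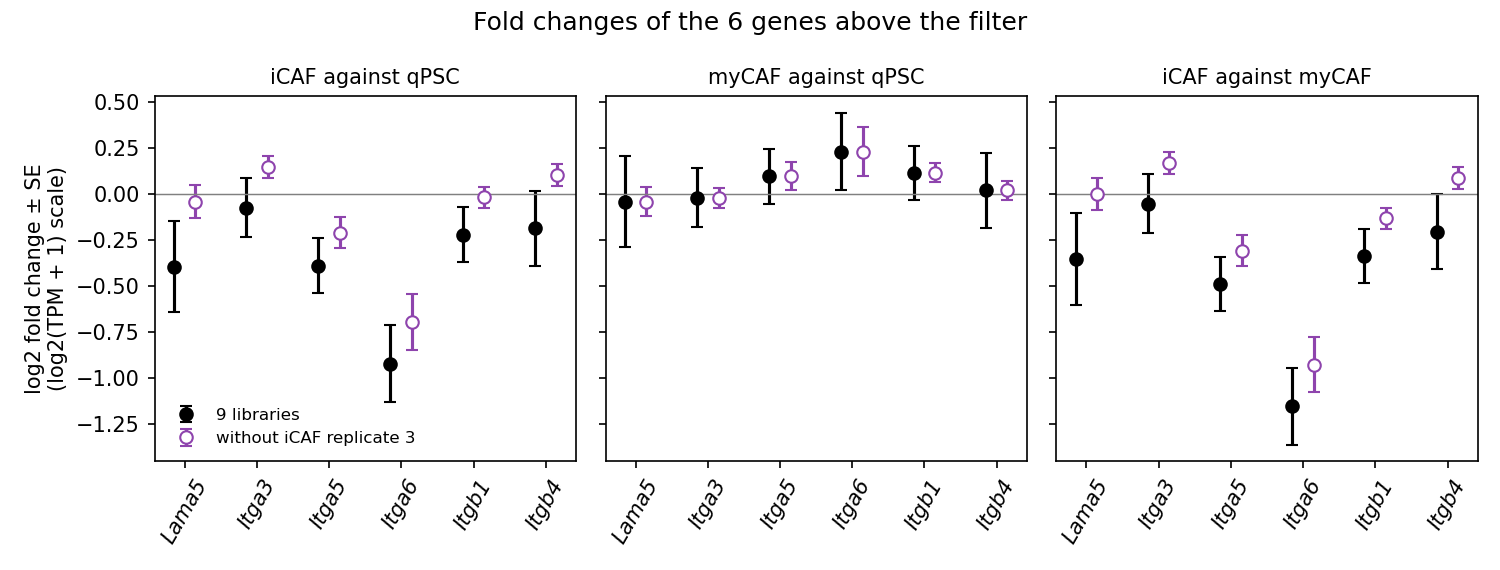
Fold change ± SE on the log2(TPM + 1) scale (vertical axis) of the 6 tested genes in each comparison, with all 9 libraries (filled) and without iCAF replicate 3 (open). Without that library Itga6 stays at -0.70 in iCAF against qPSC, while Lama5 and Itgb1 lie at -0.04 and -0.02 and Itga3 and Itgb4 lie above 0.

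Calls of Itga6 depended on which libraries were fitted. In iCAF against qPSC it passed without iCAF replicate 2 (log2 fold change -1.12; limma, adjusted p = 0.0344), a fit that called 1.66% of all genes. It also passed with each library's gene-length trend removed (-0.64; limma, adjusted p = 0.0423), where 0.635% of all genes passed. In iCAF against myCAF it passed without iCAF replicate 2 (limma, adjusted p = 0.0291; 2.39% of all genes), where Itga5 passed as well (limma, adjusted p = 0.0466). It passed without iCAF replicate 3 (limma, adjusted p = 0.0395; 0.599% of all genes) and without myCAF replicate 2 (limma, adjusted p = 0.0259; 2.41% of all genes). It passed too without iCAF replicate 3 and with libraries centred on their medians (limma, adjusted p = 0.0362; 0.445% of all genes), and with the length trend removed (limma, adjusted p = 0.0313; 0.137% of all genes). Over 21 alternatives the log2 fold change of Itga6 kept its sign, from -1.12 to -0.53 in iCAF against qPSC and from -1.37 to -0.69 in iCAF against myCAF.

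Fibroblast markers moved with Itga6 across the iCAF libraries and in part across the others. Their mean log2(TPM + 1) over the 13 that passed the filter was 3.63, 4.07 and 3.16 in iCAF libraries, 5.22, 4.35 and 5.01 in myCAF libraries, and 4.19, 4.35 and 4.51 in qPSC libraries. The 3 iCAF libraries were the lowest in both measures and in the same order, and myCAF replicates 1 and 3 were the highest in both. Their own order was reversed, as Itga6 was higher in replicate 3 and the markers in replicate 1. Within qPSC, replicate 3 had the highest marker mean (4.51) and the lowest Itga6 (6.56 TPM). myCAF replicate 2 and qPSC replicate 2 shared a marker mean of 4.35, with Itga6 at 6.48 and 7.1 TPM. Of these 13 markers 12 had negative fold changes in iCAF against qPSC with 0 called, and all 13 in iCAF against myCAF, where Postn, a matrix gene of activated fibroblasts, was called lower (log2 fold change -3.23; limma, adjusted p = 0.0325). Postn and Acta2 were also called higher by limma in myCAF against qPSC without iCAF replicate 3 (adjusted p = 0.0257 and 0.0282). The part of these markers in the Itga6 values was not tested.

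**Figure D4:**
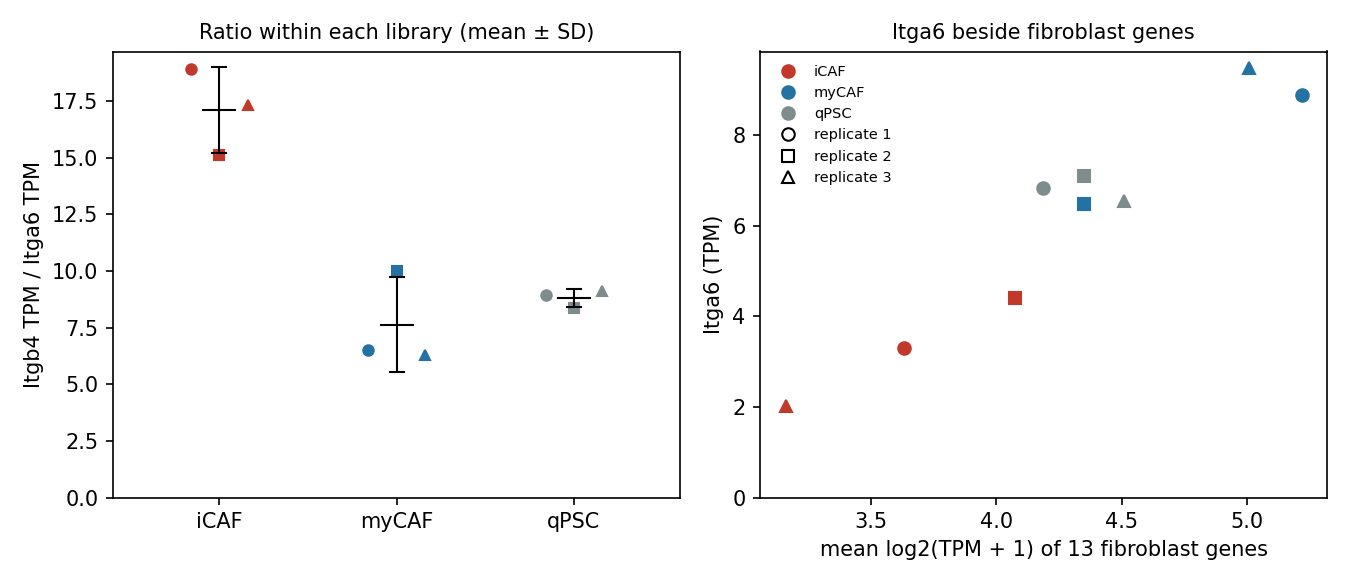
Left, the ratio of Itgb4 to Itga6 TPM in each library with the mean ± SD of 3, and right, Itga6 in TPM against the mean log2(TPM + 1) of 13 fibroblast markers, a point for each library. The iCAF libraries lie highest in the ratio, from 15.1 to 18.9, and lowest on both axes of the right panel.

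The other members of the families were read from the complete list of laminin chains and integrin subunits. Of 29 such genes beyond the 9, 11 passed the filter, and 0 were called in each of the 3 comparisons by limma, with an unadjusted p under 0.05 in 2, 3 and 3 of them. Their median log2 fold changes were -0.31 in iCAF against qPSC, with all 11 negative, -0.02 in myCAF against qPSC and -0.23 in iCAF against myCAF. Without iCAF replicate 3 these medians were -0.08, -0.02 and -0.03, and 2 genes were called in myCAF against qPSC. With 9 libraries, 228 higher and 1623 lower of all 11704 tested genes had an unadjusted limma p under 0.05 in iCAF against qPSC. The numbers were 312 and 441 in myCAF against qPSC, and 284 and 1814 in iCAF against myCAF.

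Among the integrins of this list, Itgb7 and Itgb8 had lower values next to myCAF. Itgb7, whose product is known from lymphocytes as the partner of the subunits made by Itga4 and Itgae, lay at 191, 169.5 and 136.7 TPM in iCAF libraries, 141.6, 155.2 and 143.5 TPM in myCAF libraries, and 189.7, 185.6 and 178 TPM in qPSC libraries. Itga4 did not exceed 0.0246 TPM and Itgae did not exceed 0.158 TPM in any library, so neither known partner came near it. All myCAF libraries of Itgb7 lay below the qPSC libraries, with a log2 fold change of -0.33 ± 0.11 that did not pass with 9 libraries (limma, adjusted p = 0.517). It passed with only the 6 libraries compared (limma, adjusted p = 0.0206), where 3.29% of all genes passed, and without iCAF replicate 3 (limma, adjusted p = 0.0266), where 2.83% of all genes passed.

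Itgb8, which with the product of Itgav forms a receptor that activates latent TGF-β, lay at 3.44, 3.57 and 1.93 TPM in iCAF libraries, 3.15, 3.13 and 3.49 TPM in myCAF libraries, and 4.53, 5.29 and 4.39 TPM in qPSC libraries. Both primed groups lay below qPSC without overlap. The log2 fold changes were -0.55 ± 0.17 for iCAF against qPSC (limma, adjusted p = 0.242) and -0.43 ± 0.17 for myCAF against qPSC (limma, adjusted p = 0.686). The second passed without iCAF replicate 3 (limma, adjusted p = 0.0456), and with libraries also centred on their medians Itgb8 and Itgb7 both passed (limma, adjusted p = 0.0350 and 0.0494), where 2.97% of all genes did. Leaving out iCAF replicate 3 without centring keeps the myCAF and qPSC values as they are. It changes the estimate of the spread and the set of genes tested, which was 11683 in place of 11704.

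The other expressed integrin subunits did not pass in any comparison. Itgb5, partner of the αv subunit in a vitronectin receptor, averaged 181.2 ± 28.3 TPM in iCAF, 176.6 ± 7.58 TPM in myCAF libraries and 188.5 ± 2.5 TPM in qPSC libraries (SD, n = 3). Itgav, which encodes αv, averaged 58.7 ± 17.8 TPM in iCAF, 70.9 ± 9.08 TPM in myCAF libraries and 70.4 ± 2.72 TPM in qPSC libraries. Itga7, a laminin receptor subunit best known from muscle, averaged 12.4, 14.2 and 14.2 TPM, and Itgb2 and Itga2b, subunits of blood cells, lay at or below 3.24 and 1.66 TPM in every library. For these 5 genes the limma adjusted p was above 0.05 in every comparison.

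Genes around the hemidesmosome did not pass either. Of 11 hemidesmosome partners and other laminin receptors, 8 passed the filter and 0 were called in any comparison. Cd151, a tetraspanin that binds laminin-binding integrins, averaged 261.8 ± 20.2 TPM in iCAF, 236.6 ± 12.2 TPM in myCAF libraries and 246.2 ± 7.57 TPM in qPSC libraries. Rpsa, a ribosomal protein gene also described as a laminin receptor, averaged 2336 ± 434.3 TPM in iCAF, 2056 ± 93.8 TPM in myCAF libraries and 1948 ± 76.3 TPM in qPSC libraries. Plec, which encodes plectin, the link of Itgb4 to keratin, lay at 173.5, 213.4 and 76.7 TPM in iCAF libraries, 205, 207.4 and 220.1 TPM in myCAF libraries, and 227.1, 233 and 207.4 TPM in qPSC libraries. Col17a1, Krt5 and Krt14, of the hemidesmosomes and keratins of stratified epithelia, did not exceed 0.692, 0.0313 and 0.137 TPM. Dst, which encodes dystonin, another linker of hemidesmosomes to the cytoskeleton, had the largest change of the list in iCAF against qPSC. It lay at 13.3, 18.5 and 4.61 TPM in iCAF libraries, 22.1, 19 and 24.1 TPM in myCAF libraries, and 24.4, 24.8 and 20.6 TPM in qPSC libraries. All iCAF libraries of Dst lay below all others, with log2 fold changes of -1.06 ± 0.37 in iCAF against qPSC (limma, adjusted p = 0.289) and -0.96 ± 0.37 in iCAF against myCAF (limma, adjusted p = 0.244), and of -0.53 and -0.44 without iCAF replicate 3. Plec, Dst, Col17a1, Krt5 and Krt14 were picked for description after their values were seen.

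Ligands of these integrins other than laminin were abundant. Of 18 basement membrane and integrin ligand genes, 11 passed the filter, 0 were called in any comparison, and all 11 had negative changes in iCAF against qPSC, at a median of -0.34 with and -0.05 without iCAF replicate 3. Spp1, which encodes osteopontin, averaged 8234 ± 556.2 TPM in iCAF, 8098 ± 575.2 TPM in myCAF libraries and 8613 ± 513.3 TPM in qPSC libraries. Fn1, the fibronectin bound by the receptor of Itga5 and Itgb1, lay at 1377, 1646.5 and 651.7 TPM in iCAF libraries, 1228.2, 1358.5 and 1369.6 TPM in myCAF libraries, and 1480.7, 1521.5 and 1523.9 TPM in qPSC libraries. Col4a1, Col18a1 and Col4a2, collagens of basement membranes, averaged 145.3, 239.4 and 120.9 TPM in iCAF, 170.3, 255.3 and 135.2 TPM in myCAF libraries and 176.1, 284.5 and 141.6 TPM in qPSC libraries. Vtn, Nid2, Col4a3, Col4a4, Col4a6, Frem2 and Fras1 lay under 1 TPM in every library.

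Tnc, which encodes the matrix protein tenascin-C, had the largest difference in that list and was named after its values were seen. It lay at 1.31, 2.96 and 0.737 TPM in iCAF libraries, 15.1, 5.4 and 9.97 TPM in myCAF libraries, and 5.59, 5.79 and 7.05 TPM in qPSC libraries. All iCAF libraries lay below all others, with log2 fold changes of -1.50 ± 0.36 for iCAF against qPSC (limma, adjusted p = 0.127, with alternatives from 0.0415 to 0.456) and -2.05 ± 0.36 for iCAF against myCAF (limma, adjusted p = 0.0866, with alternatives from 0.0178 to 0.359). In the order of the libraries within iCAF and in its high values in myCAF replicates 1 and 3, Tnc ran like Itga6 and the fibroblast markers.

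Of 27 adaptors that join integrins to actin or signal from them, 24 passed the filter and limma called 0 in any comparison and gave 0 an unadjusted p under 0.05. Flna, Actn4 and Rap1b, among the highest of them, averaged 636.4, 271.8 and 226.9 TPM in iCAF, 728.9, 296.1 and 250.9 TPM in myCAF libraries and 683, 311.6 and 240.3 TPM in qPSC libraries. Their list had a median log2 fold change of -0.24 in iCAF against qPSC with all libraries and 0.01 without iCAF replicate 3. Of a list of 9 proteases linked to laminin processing, 7 passed the filter and 0 were called. limma called 1 of them without iCAF replicate 3, namely Mmp9, which encodes a secreted gelatinase, in myCAF against qPSC (log2 fold change -0.56; adjusted p = 0.0118). Mmp9 averaged 7.14 ± 0.294 TPM in myCAF libraries and 10.98 ± 0.569 TPM in qPSC libraries. Mmp14, a membrane-bound matrix metalloproteinase, averaged 73 ± 11.6 TPM in iCAF, 82.8 ± 3.79 TPM in myCAF libraries and 86.7 ± 1.32 TPM in qPSC libraries. Htra1, Furin and Plau averaged 197.6, 43.4 and 42.2 TPM in iCAF, 171.3, 51.8 and 50.9 TPM in myCAF libraries and 190.5, 54.3 and 55.6 TPM in qPSC libraries.

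Across the 9 libraries the 6 tested genes ran together, and much of that came from 1 library. As a description, Pearson's r of log2(TPM + 1) between pairs of these genes was 0.4 to 0.965 over the 15 pairs, with a median of 0.877 over 9 libraries. Without iCAF replicate 3 the range was -0.873 to 0.951 and the median 0.23. The tested genes most like the mean of the 6, each with r from 0.995 to 0.996, were Cblb, Sec24b, Cic, Stk24 and Sh3rf1, and their r was 0.945 to 0.974 over the other 8 libraries. These values share the libraries and their depth and come from genes that are not independent replicates.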

How the data were processed

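Single reads of 50 bases came from stranded mRNA libraries, per the labels' protocols. Values are TPM by gene symbol, from 1 table that the authors deposited, and Salmon, DESeq2 and R 4.0.1 are named in the submitters' processing notes with no step for each. Their genome build is not given in the sources used here. As TPM is a share of a total, a library whose composition differs shifts its other genes.

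Groups were read from sample titles. The 11704 genes that reached 1 TPM in 3 or more libraries were fitted as log2(TPM + 1) with limma 3.58.1 (R 4.3.3, mean-variance trend, all 9 libraries by group). A test on simulated data gave every gene the same spread and had no outlying library, so it does not stand for these data. The contrasts were iCAF against qPSC, myCAF against qPSC and iCAF against myCAF, with Benjamini-Hochberg adjusted p-values over all genes and a threshold of 0.05.

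Reads were implied from TPM times the exon length of GENCODE M21, matched for 98.86% of symbols, and 97.8% to 98.1% of values under 200 reads came out whole within 0.05 reads. Floors and read counts cover counting error only.

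Genes and lists were chosen with earlier results of these data known. Named were the 9 genes, every called gene of a list (up to 6 a comparison), the 4 highest others of each list, every laminin chain or integrin subunit above the filter and the 5 genes most like the mean pattern. Alternatives were other centring, filters and pseudocounts, the 6 libraries compared, a replicate block, no trend and each library left out. limma-voom on implied reads and removal of the gene-length trend were added after seeing the data. Results of some genes in the lists are not reported here.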

Additional observations from a re-analysis of the deposited data

How the results depend on the processing

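With 9 libraries, the 6 tested of the 9 genes and the 11 tested other laminin and integrin genes gave 0 calls in any comparison. Of all tested genes 0.598% were called in iCAF against qPSC, 0% in myCAF against qPSC and 0.0598% in iCAF against myCAF. The calls of the laminin and integrin genes changed as follows. Of the 9 genes, leaving out 1 library gave 0 to 1 call in iCAF against qPSC and 0 to 2 in iCAF against myCAF. Removing the gene-length trend gave 1 call in each of these comparisons, and leaving out iCAF replicate 3 with centring gave 1 in iCAF against myCAF. Of the other laminin and integrin genes in myCAF against qPSC, the 6 libraries alone gave 2 calls, leaving out 1 library gave 0 to 2, and leaving out iCAF replicate 3 with centring gave 3. In iCAF against myCAF leaving out 1 library gave 0 to 1. The cause was not tested. The remaining alternatives gave 0 calls of these genes.

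Of 378 log2 fold changes of the 6 tested genes under alternatives, 329 moved by less than 1 SD between replicates and 27 had the opposite sign. Many of them could not move. Other filters, no trend and the replicate block with 9 libraries keep a fold change as it is. So do the 6 libraries alone and leaving out a library of the third group. The SD also takes in iCAF replicate 3, so the 329 does not measure how robust the changes are. In the fit with the replicate block, 0 of the 6 tested genes were called in each comparison, and the adjusted p of Itga6 by limma was 0.234 in iCAF against qPSC. Same-numbered libraries were not more alike than others: their deviations from the group means correlated at -0.353 to 0.248 and those of other pairs at -0.353 to 0.306. As each group mean rests on 3 libraries, these ranges do not settle whether libraries were paired. Over all genes, calls in iCAF against qPSC were 70 lower in the report's fit, 22 lower with the block, 23 lower and 1 higher with centring, and 163 lower and 13 higher without iCAF replicate 3, and were 0 when any qPSC library was left out. Centring moved the median of all genes from -0.15 to 0.05 there, and genes with an unadjusted p under 0.05 from 228 higher and 1623 lower to 1372 higher and 945 lower. Values of genes under 1 TPM are limited by depth.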
